A study of Mus musculus with 12 samples.

Results

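Igf2r was examined through every methylation value that 12 mouse libraries gave for it, namely 4 rows of the gene itself and 2 CpG islands inside its span, 6 of the 176831 features listed in at least 1 library. The gene rows were chosen by the Ensembl identifier of Igf2r (ENSMUSG00000023830) and gave 1 pooled level each for its exons, introns, promoter and 5' untranslated region (UTR). The islands were chosen by overlap with the gene, which runs from 12682406 to 12769664 on the minus strand of chromosome 17 (mm10, GRCm38). No island shore in the files overlapped that span, and all 6 rows had a level in each library. The assay was RRBS (reduced representation bisulfite sequencing), in which the enzyme MspI cuts at CCGG and thereby enriches DNA rich in CpG sites, and a level is the share of CG calls that were methylated.

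The libraries fell into 6 groups of 2, all labelled C57BL6. ESCs were female embryonic stem cells, and pESCs were parthenogenetic ones, derived from oocytes activated with strontium and no sperm, so that both chromosome sets are maternal. According to the study's methods, both kinds of line came from Actin-GFP mice and grew on feeder cells. PGCLCs, primordial germ cell-like cells, were induced from ESCs or pESCs over 2 days as epiblast-like cells and 4 days with BMP4, SCF, EGF and LIF. Per the study's methods, the stem cells were first kept for several passages in another medium, with a reduced dose of the inhibitor PD0325901. PGCs, the precursors of eggs and sperm, were taken on 2 embryonic days, 9.5 (E9.5) and 12.5 (E12.5), from female embryos and enriched by surface markers. The libraries listed between 144375 and 166476 features each, with no read counts, so the depth behind a level is unknown. The labels gave no line number, culture or litter for the replicates, so the p-values measure only the spread between these libraries, which may be technical. A table of methylation levels cannot be checked for cell type markers, and the identity of the cells rests on the labels. The levels separate neither the parental copies nor single cells, so fewer methylated cells and fewer methylated copies per cell cannot be told apart.

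Igf2r encodes the cation-independent mannose 6-phosphate receptor, which carries lysosomal enzymes to lysosomes and binds insulin-like growth factor 2 (IGF2) for degradation, and thereby restrains fetal growth. In the mouse it is expressed mainly from the maternal copy. The mark that sets this up is a CpG island in the second intron, methylated in the egg but not in sperm. The island lies at the start of Airn, a long non-coding RNA transcribed antisense to Igf2r from the unmethylated paternal copy, where its transcription silences the Igf2r promoter. Germ cells erase such imprints before new ones are set, so the same island is also a readout of imprint erasure in PGCs.

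The intronic island, called the imprint island here, covered chr17:12741441-12742489, 1049 bp within intron 2 of Igf2r. It began 130 bp past the annotated start of Airn and lay between 27175 and 28223 bp downstream of the Igf2r start. It held 82 CpG sites, 63.0% G and C, and 5 CCGG sites at which MspI can cut. The other island, called the promoter island, covered chr17:12769059-12770009, 951 bp over exon 1, with 111 CpG sites, 71.0% G and C and 9 CCGG sites. The letters TGCCGC, the core of the motif bound by the imprint-protecting factor ZFP57 when methylated, occurred 7 times in the imprint island and 1 time in the promoter island, counting both strands. At least 1 match was present in 56.8% and 55.6% of 14559 windows of the same lengths centred on all islands, so a match by itself was common. Stretches of GRCm38 are printed to show how unlike the sequences at the 2 ends of this regulatory pair are, with CG in capitals: the 300 bases of the imprint island with the most CpG sites (chr17:12741732-12742031, plus strand, 31 CpG sites, 3 matches to TGCCGC), and the RefSeq promoter windows of Igf2r (chr17:12769657-12769956, minus strand, 34 CpG sites) and Airn (chr17:12741061-12741360, plus strand, 3 CpG sites), each with 250 bases before the start and 50 from it on. Neither promoter window held TGCCGC, which was found in 11.6% of 32851 such windows.
imprint island: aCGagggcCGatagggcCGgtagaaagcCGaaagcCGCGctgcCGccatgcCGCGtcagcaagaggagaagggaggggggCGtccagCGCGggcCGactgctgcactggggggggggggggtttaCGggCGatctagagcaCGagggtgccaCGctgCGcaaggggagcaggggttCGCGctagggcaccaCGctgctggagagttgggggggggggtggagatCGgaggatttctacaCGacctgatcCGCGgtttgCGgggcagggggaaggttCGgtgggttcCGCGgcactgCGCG
Igf2r promoter: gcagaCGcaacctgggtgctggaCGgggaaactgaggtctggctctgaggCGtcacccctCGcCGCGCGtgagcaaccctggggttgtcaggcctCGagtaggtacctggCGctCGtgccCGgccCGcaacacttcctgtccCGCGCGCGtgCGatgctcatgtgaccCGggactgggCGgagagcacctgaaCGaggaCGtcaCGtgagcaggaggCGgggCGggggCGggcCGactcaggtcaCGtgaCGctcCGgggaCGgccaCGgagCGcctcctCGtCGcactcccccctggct
Airn promoter: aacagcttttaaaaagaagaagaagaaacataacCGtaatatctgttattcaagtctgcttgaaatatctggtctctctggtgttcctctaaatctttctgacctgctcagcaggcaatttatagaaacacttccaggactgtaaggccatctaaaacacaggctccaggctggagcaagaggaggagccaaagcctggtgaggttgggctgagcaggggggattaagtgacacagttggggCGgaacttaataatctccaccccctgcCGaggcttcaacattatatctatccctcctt

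**Figure D1:**
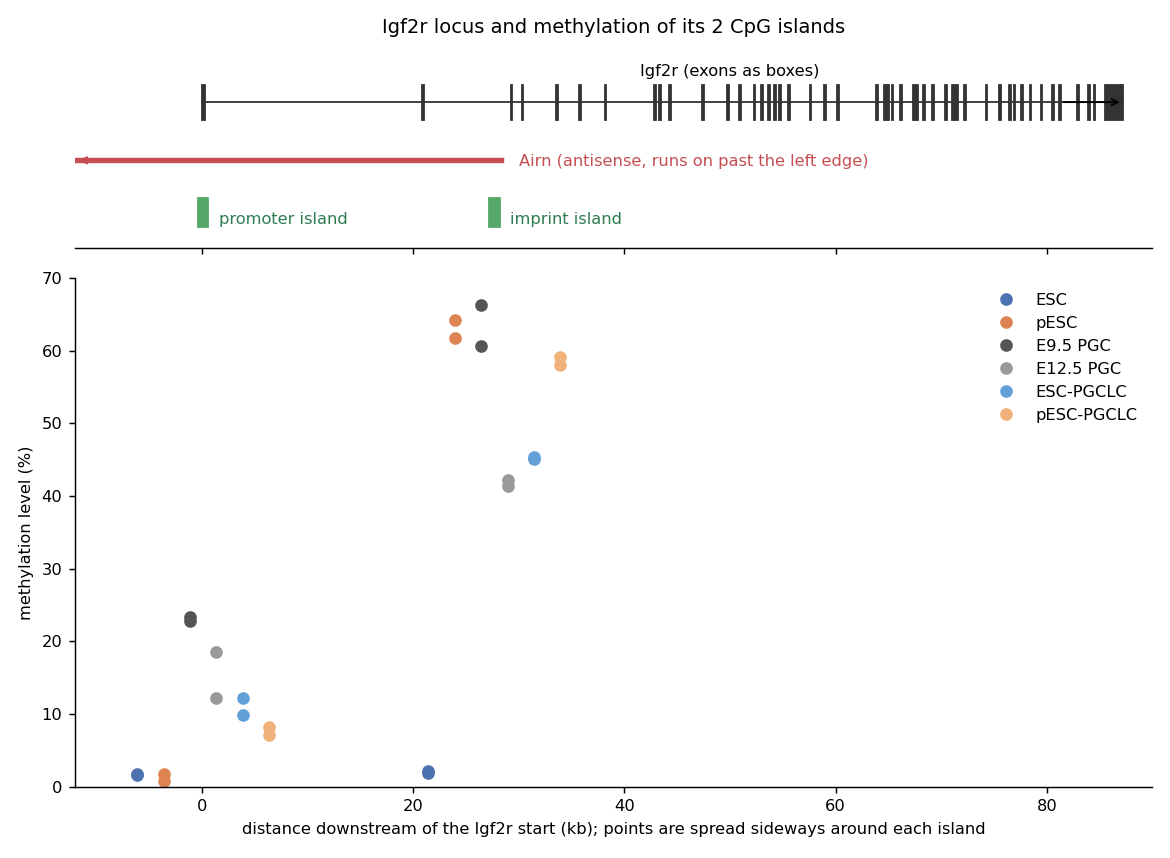
Top, the Igf2r gene with its exons, the start of the antisense Airn gene and the 2 CpG islands, by distance in kb downstream of the Igf2r start. Bottom, methylation level (%) of each island in each library, with the points of the 6 groups spread sideways; at the imprint island both ESC libraries lie near 2% and the other 10 libraries above 40%.

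The levels of the 6 rows were compared first. In ESCs the imprint island was almost free of methylation, whereas it was the most methylated of the 6 rows in both pESC libraries. Its level was 1.91% and 2.20% in the ESC libraries, against 61.7% and 64.2% in pESCs. In PGCs it was 60.7% and 66.3% at E9.5 but 42.2% and 41.4% at E12.5. PGCLCs had 45.1% and 45.3% when made from ESCs, and 58.0% and 59.1% when made from pESCs. From the lowest to the highest mean the order was ESCs, E12.5 PGCs, ESC-PGCLCs, pESC-PGCLCs, pESCs and E9.5 PGCs, and only the last 2 groups overlapped. For comparison, the median of all 13715 islands with a level in each library stayed between 1.82% and 2.10% in the 6 groups.

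The intron row pools the CG calls of all introns and therefore includes those of the imprint island. It followed the same order with a smaller range. Its levels were 24.9% and 23.4% in ESCs, against 52.9% and 59.2% in pESCs. In PGCs they were 55.7% and 65.1% at E9.5 but 42.0% and 37.3% at E12.5. PGCLCs had 43.4% and 47.7% when made from ESCs, and 49.1% and 50.1% when made from pESCs. Again only pESCs and E9.5 PGCs overlapped among neighbours in that order. The median of all 18556 introns was 24.4% in ESCs and 25.7% in pESCs, so the Igf2r introns were near the middle in ESCs and far above it in pESCs.

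The rows at the start of the gene had another order. The promoter island was at 1.55% and 1.71% in ESCs and at 0.791% and 1.75% in pESCs, which overlapped. In PGCs it stood at 23.3% and 22.8% at E9.5, then at 18.6% and 12.2% at E12.5. PGCLCs had 9.90% and 12.2% when made from ESCs, and 8.25% and 7.13% when made from pESCs. Germ cells thus had more methylation here than stem cells in every library. The 5' UTR row, which overlaps that island and is not independent of it, was at 0.597% and 0.230% in ESCs, with pESCs at 0.476% and 0.510%. In PGCs it stood at 30.9% and 31.5% at E9.5, then at 21.6% and 15.8% at E12.5. PGCLCs had 14.8% and 18.5% when made from ESCs, and 11.3% and 8.67% when made from pESCs. Both rows were thus near 0 in the stem cells, highest in E9.5 PGCs, and lower in pESC-PGCLCs than in each ESC-PGCLC library.

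The wider promoter row varied least. It ranged from 9.50% to 15.01% in the 4 stem cell libraries, from 11.4% to 15.8% in the 4 PGCLC libraries, and from 13.2% to 25.4% in the 4 PGC libraries. Only E9.5 PGCs, with 25.4% and 19.7%, stood clear of the neighbouring group. The exon row was the least repeatable, with 29.8% and 50.2% in the pESC libraries, and its 5 lower groups overlapped one another in order of their means, with E9.5 PGCs at 60.8% and 57.0% above them.

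**Figure D2:**
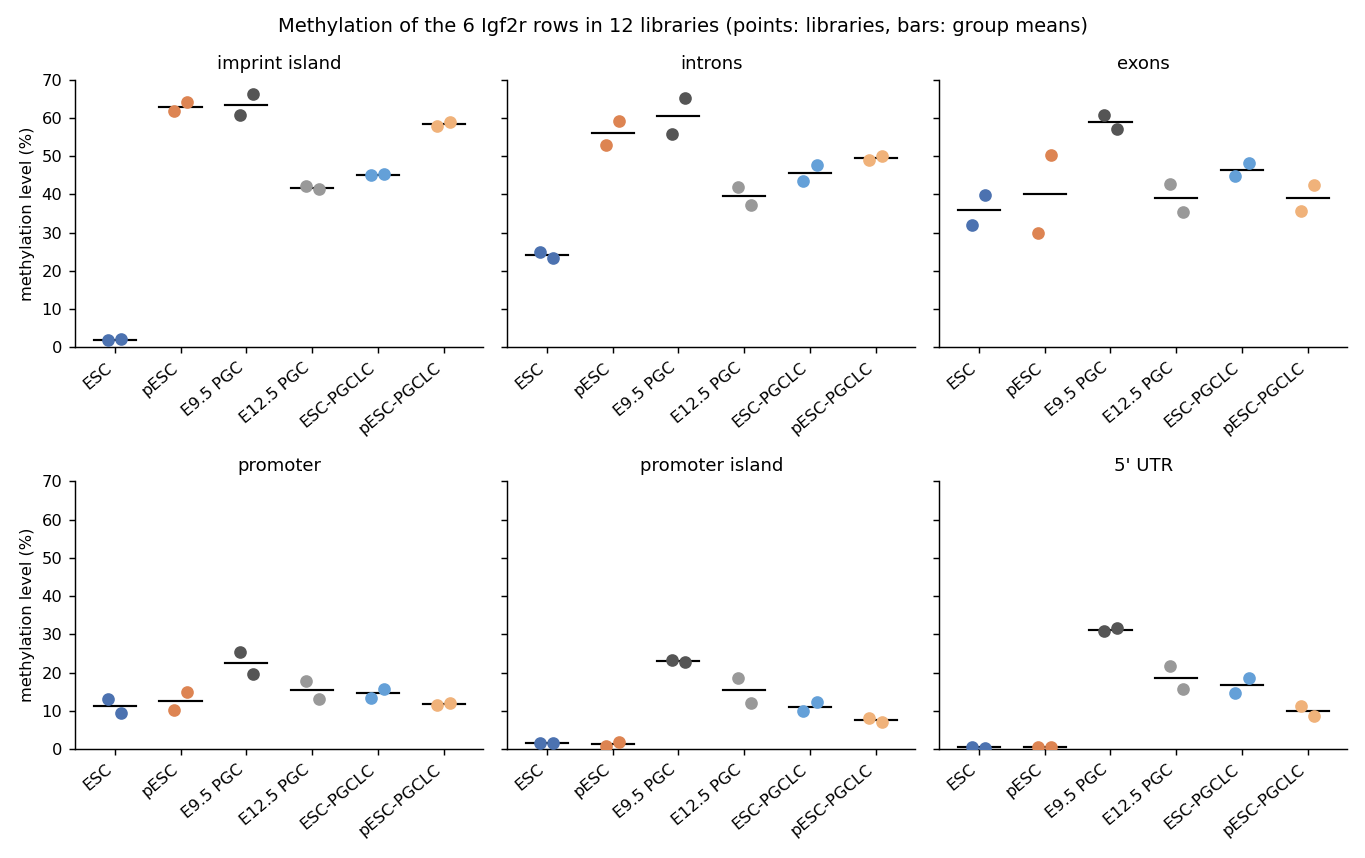
Methylation level (%) of the 6 Igf2r rows in each library, with 1 panel per row, points for the 2 libraries of each group and bars for the group means. The imprint island separates ESCs (mean 2.05%) from pESCs (mean 63.0%), while the promoter island and the 5' UTR are under 2% in both.

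The comparison of pESCs with ESCs sets cells with only maternal chromosome sets beside cells from both parents. ESCs carry a maternal copy, yet their imprint island was almost free of methylation. The design does not separate parental origin from other differences between these cells. Why the ESC level was low was not tested. At Igf2r the difference lay in the intron and not at the start of the gene. The imprint island was 60.9 percentage points higher in pESCs (mean ± SD of 63.0% ± 1.75 against 2.05% ± 0.204 in ESCs, n = 2 each), and the intron row 31.9 points higher (56.1% ± 4.47 against 24.1% ± 1.07). The promoter row differed by 1.22 points, the 5' UTR by 0.0797, the promoter island by -0.362 and the exons by 4.15, and in each of these the libraries of both groups overlapped.

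No feature passed the test in this comparison, Igf2r included. On simulated levels this test called 0 of 200 features shifted by 2 on the log2 odds scale. Of 200 features shifted by 4 it called 108, and the imprint island differed by 5.77 on that scale. The lack of calls therefore does not show a lack of differences. With limma and Benjamini-Hochberg adjustment over 148012 features, 0 were called (0%) at an adjusted p under 0.05 and at least 10 points, while 2054 lay under 0.05 before adjustment, 2 of the 6 Igf2r rows among them. The Igf2r imprint island ranked first of 13987 islands by points and first of all features by p. Its limma adjusted p, 0.0795, was the lowest of all, but the adjustment gave that value to lower-ranked features too. The intron row had an adjusted p of 0.876 and ranked 7th of 19537 introns by points. With limma on all 12 libraries in one fit, the adjusted p was 3.08e-06 for the island and 0.0220 for the introns. Leaving out any 1 of the 4 libraries kept the difference of the island between 59.7 and 62.1 points. With 1 library left in a group, the spread in these fits rests on the other group alone, so no p-value is given for them.

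The imprint island was then placed among other islands, by levels chosen after the values were seen and therefore with no test. Of the 13715 islands, 12401 were under 5% in both ESC libraries. Among these only 2 were over 40% in both pESC libraries, the Igf2r imprint island and an island shared by Commd1 and Zrsr1, an imprinted pair, which averaged 1.69% in ESCs and 41.5% in pESCs. Only that of Igf2r was over 40% in all 10 libraries that were not ESCs. In the spans of 15 other genes with a known egg-derived imprint region, 16 islands in 12 genes were over 40% in both E9.5 libraries. They were chosen by position, so not each need be the imprint region itself. Their means ranged from 1.17% to 53.8% in ESCs (median 16.5%) and from 3.32% to 75.4% in pESCs (median 45.9%). Of the 16, 7 were under 5% in ESCs as the Igf2r island was, and these 7 reached at most 41.5% in pESCs.

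**Figure D3:**
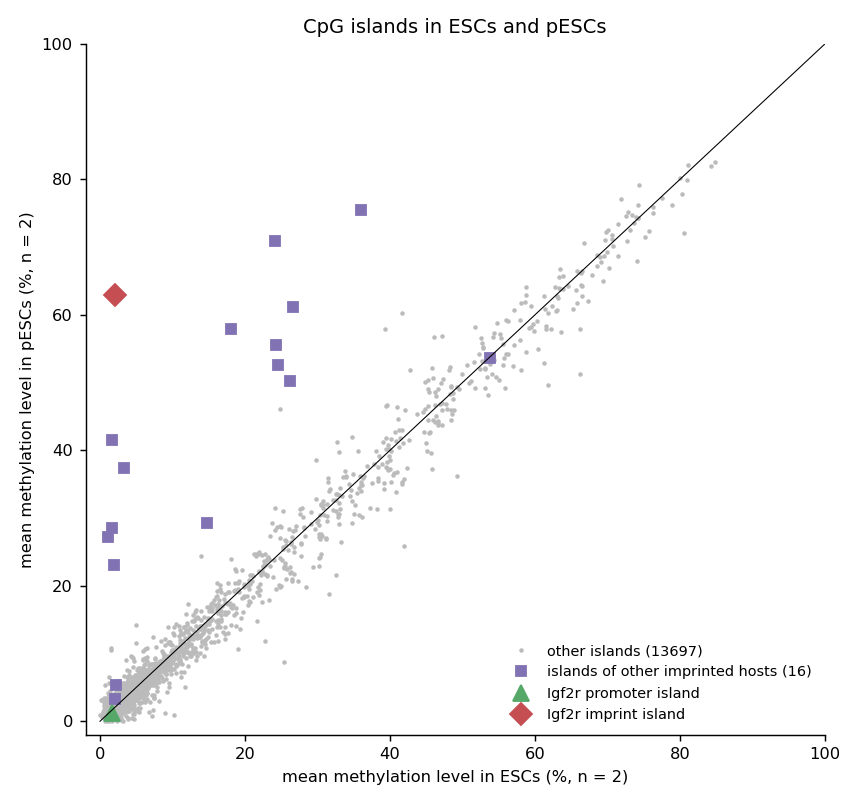
Mean methylation level (%) of 13715 CpG islands in ESCs (x axis) and pESCs (y axis), n = 2 libraries each, with the line of equal levels. The Igf2r imprint island lies at 2.05% and 63.0%, far above the line, and the Igf2r promoter island at 1.63% and 1.27%, on it; squares mark 16 islands of other imprinted genes.

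The intron rows of those 15 genes, 13 of which could be tested, showed how far the Igf2r intron shared its pattern. All 13 were higher in pESCs than in ESCs, with or without subtraction of each library's median, but by limma none was called and 8 had an unadjusted p under 0.05. Their median difference was 10.9 points against 0.234 over 19537 introns. The largest difference was that of Mest, an imprinted hydrolase gene, with 62.0% ± 3.38 in pESCs against 16.3% ± 1.80 in ESCs (SD, n = 2). By the mean absolute difference over the 12 libraries, the introns most like those of Igf2r among 18556 were those of Impact (4.14 points), Mest (5.63), Itm2c (5.98), Tff3 (6.40) and Poln (6.52). Impact and Mest belong to the 15 genes, while the introns of Itm2c, Tff3 and Poln were at 38.1%, 36.4% and 41.8% in ESCs, above those of Igf2r.

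Germ cells in the embryo were compared at the 2 ages to follow the imprint during the period of erasure. From E9.5 to E12.5 the imprint island fell by 21.7 points, from 63.5% ± 4.00 to 41.8% ± 0.595 (SD, n = 2), and the introns by 20.8 points, from 60.4% ± 6.62 to 39.6% ± 3.36. The exons fell by 19.8 points and the 5' UTR by 12.5. The promoter row differed by -7.005 points and the promoter island by -7.69, and neither was called.

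Falls of this kind were general at these ages. By limma with Benjamini-Hochberg adjustment the adjusted p was 0.000341 for the imprint island, 0.00308 for the introns, 0.00377 for the exons and 0.0130 for the 5' UTR, so that 4 of 6 rows were called where 49.6% of 137202 features were. The median over all features was -11.5 points, and the library medians differed by -1.12 on the log2 odds scale. After subtraction of each library's median none of the 6 rows was called (limma adjusted p = 0.501 for the island and 0.794 for the introns), and the promoter, promoter island and 5' UTR rows lay on the other side of 0. The call of the 5' UTR was also lost without E9.5 PGC replicate 2 (limma adjusted p = 0.0545) or E12.5 PGC replicate 2 (0.0615), and the promoter island was called without E12.5 PGC replicate 1 (0.00617).

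PGCLCs made in culture were next set beside PGCs. ESC-PGCLCs lay below E9.5 PGCs in each Igf2r row, and pESC-PGCLCs did so too, but their imprint island was the row that stayed closest to E9.5. Against E9.5 PGCs the imprint island of ESC-PGCLCs was different by -18.3 points (45.2% ± 0.176 against 63.5% ± 4.00, SD, n = 2), and its limma adjusted p was 0.00193. That of pESC-PGCLCs differed by -4.98 points (58.5% ± 0.752), with a limma adjusted p of 0.115. At the promoter island the difference was -12.03 points for PGCLCs from ESCs and -15.4 points for those from pESCs, and both were called (limma adjusted p = 0.00873 and 0.00158).

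In ESC-PGCLCs against E9.5 PGCs 5 of 6 rows were called lower, with 29.8% of features called in all, and the promoter row (-7.96 points) was not. In pESC-PGCLCs against E9.5 PGCs 5 rows were also called lower, with 40.3% called in all, and the imprint island was the exception. Several of these calls were close to the threshold. The introns in ESC-PGCLCs (-14.9 points, limma adjusted p = 0.0197) lost their call without E9.5 PGC replicate 2 (0.0698) or ESC-PGCLC replicate 1 (0.0944), and the exons (-12.5 points, 0.0372) lost it without any 1 of the 4 libraries (0.0711 to 0.156). The 5' UTR in ESC-PGCLCs lost its call without ESC-PGCLC replicate 1 (limma adjusted p = 0.0529), where the promoter row was called without E9.5 PGC replicate 2 (0.0384). The introns in pESC-PGCLCs (-10.8 points, 0.0499) lost their call without E9.5 PGC replicate 2 (0.20), pESC-PGCLC replicate 1 (0.16) or pESC-PGCLC replicate 2 (0.132). The promoter row in pESC-PGCLCs (-10.9 points) fell under the minimum of 10 points without E9.5 PGC replicate 1. After subtraction of the library medians, no row of ESC-PGCLCs was called against E9.5 PGCs (limma adjusted p = 0.103 for the imprint island). In pESC-PGCLCs the 5' UTR (limma adjusted p = 0.0155) and promoter island (0.0317) were still called lower, and the imprint island lay above E9.5 PGCs instead of below (0.0451).

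Against E12.5 PGCs the order changed. ESC-PGCLCs differed from E12.5 PGCs by 3.38 points at the imprint island and 5.92 in the introns, and none of the 6 rows was called (limma adjusted p from 0.171 to 0.808, 0 with an unadjusted p under 0.05) where 22.8% of all features were. In pESC-PGCLCs the imprint island was 16.7 points above E12.5 PGCs (58.5% ± 0.752 against 41.8% ± 0.595, SD, n = 2; limma adjusted p = 0.0178), the only row called of the 6 where 7.10% of all features were. It ranked 21st of 13799 islands by points. That call was lost without any 1 of the 4 libraries (limma adjusted p from 0.0640 to 0.0915) with libraries centred on their medians (0.107) and with all 12 libraries in one fit (0.0522). The start of the gene went the other way, at -8.69 points for the 5' UTR and -7.70 points for the promoter island, under the minimum of 10 points.

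In percentage points the 2 kinds of PGCLC differed most at the imprint island. It was 13.3 points higher in pESC-PGCLCs than in ESC-PGCLCs, with no overlap, and ranked 5th of 13799 islands by points. The promoter island differed by -3.35 points and the 5' UTR by -6.64. On the log2 odds scale the 5' UTR differed by -0.793 and the imprint island by 0.760. None of the 6 rows was called (limma adjusted p = 0.114 for the imprint island, 2 rows with an unadjusted p under 0.05), in a comparison in which 0.0948% of all features were. On untransformed levels or with an offset of 0.1 the limma adjusted p of the imprint island was 0.0307 or 0.0464, and with all 12 libraries 0.343. The direction of the calls over all features depended on the setting, with 46.9% of them higher in pESC-PGCLCs here, 10.2% on untransformed levels, 12.5% with an offset of 0.1 and 70.5% with libraries centred.

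PGCLCs were compared with the stem cells of their own origin. The imprint island was higher in ESC-PGCLCs than in ESCs, but not in pESC-PGCLCs than in pESCs. The libraries are separate and the labels name no line, so a rise, gain or change here and below is a difference of group means. From ESCs to ESC-PGCLCs it rose by 43.1 points, from 2.05% ± 0.204 to 45.2% ± 0.176 (SD, n = 2). The introns rose by 21.4 points, from 24.1% ± 1.07 to 45.6% ± 3.04, and the 5' UTR by 16.2 points, from 0.414% ± 0.259 to 16.6% ± 2.67. From pESCs to pESC-PGCLCs the imprint island differed by -4.42 points, from 63.0% ± 1.75 to 58.5% ± 0.752, and the introns by -6.44, with neither called. The promoter island gained 9.41 points on the ESC side and 6.42 points on the pESC side, both under the minimum of 10 points.

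By limma with Benjamini-Hochberg adjustment, the adjusted p from ESCs to ESC-PGCLCs was 7.45e-05 for the imprint island, 0.000118 for the 5' UTR and 0.00480 for the introns, 3 of 6 rows called higher where 14.6% of features were called. The island ranked 197th of 13835 by points. The library medians themselves differed by 1.17 on the log2 odds scale, and after centring the imprint island and the 5' UTR were still called (limma adjusted p = 0.000452 and 0.000844) while the introns were not (0.464). The call of the introns was also lost without ESC-PGCLC replicate 2 (limma adjusted p = 0.0518), and the promoter island passed 10 points without ESC-PGCLC replicate 1. From pESCs to pESC-PGCLCs 0 of 6 rows were called by limma (2 with an unadjusted p under 0.05) where 9.66% of features were, although the 5' UTR (9.51 points, limma adjusted p = 0.000410) and promoter island (0.00236) missed only the minimum of 10 points. Without pESC-PGCLC replicate 2 the 5' UTR passed it.

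The difference between the 2 changes was tested as an interaction. At the imprint island the change in pESC origin minus that in ESC origin was -47.6 points (limma adjusted p = 0.00721), the most negative of 13835 islands, in a test that called 0.0365% of 136848 features. Of these calls 50.0% were positive, against 0% on untransformed levels or with an offset of 0.1. The other 5 rows were not called, and the introns, at -27.9 points, had a limma adjusted p of 0.548. With libraries centred the imprint island was still called (limma adjusted p = 0.0178). The call was lost without pESC replicate 1 or 2, ESC-PGCLC replicate 2, or pESC-PGCLC replicate 1 or 2 (limma adjusted p from 0.0626 to 0.0941). Both stem cell groups enter this test and the comparisons above, so these results are not independent of one another.

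**Figure D4:**
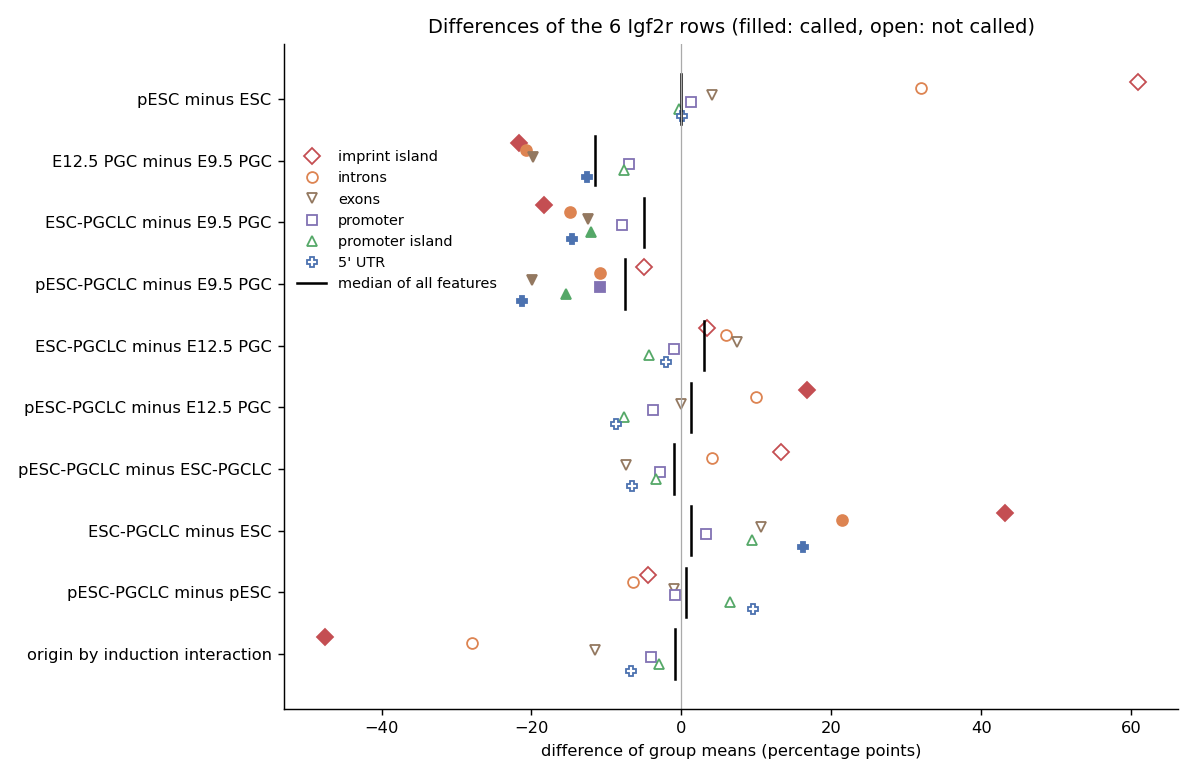
Difference of group means in percentage points (x axis) for each of 10 comparisons and each of the 6 Igf2r rows, with filled symbols for called rows, open symbols for rows not called, and a black bar for the median of all features tested. The imprint island lies farthest to the right in pESC minus ESC (60.9 points) and farthest to the left in the interaction (-47.6 points).

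The contrast of the intron with the gene's own promoter was taken within each library. A general change of methylation is not removed by it, since the median of all introns was 48.2% in E9.5 PGCs but 28.5% in those of E12.5, and that of all promoters 5.17% and 3.87%. The gap of the intron row over the promoter row was 12.8 points ± 1.54 in ESCs and 43.5 ± 1.03 in pESCs (SD, n = 2). E9.5 PGCs had 37.9 ± 10.6 and those of E12.5 had 24.1 ± 0.0267. It was 31.0 ± 1.33 for PGCLCs from ESCs and 37.9 ± 0.352 for those from pESCs. Between the 2 islands the gap was 0.425 points ± 0.0975 in ESCs and 61.7 ± 1.07 in pESCs. It was 40.4 ± 4.35 in E9.5 PGCs and 26.4 ± 3.95 in those of E12.5. PGCLCs had 34.1 ± 1.44 from ESCs and 50.8 ± 1.54 from pESCs. The island gap thus put pESC-PGCLCs above E9.5 PGCs in each library, whereas the imprint island alone put them below. Libraries of the groups compared did not overlap in 9 of 9 island gaps and 7 of 9 intron gaps, with an exact two-sided permutation p of 0.333 in each of those that did not overlap, the smallest that 2 libraries against 2 allow.

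The neighbours of Igf2r on chromosome 17 were described from a list of 12 genes, of which 9 had testable introns and 6 testable promoters. Airn, whose transcribed span covers 28354 bp of Igf2r and shares the imprint island, had an intron row that overlaps that of Igf2r and is not independent of it. This intron row was at 5.38% ± 0.957 in ESCs and 37.6% ± 11.4 in pESCs, against 30.8% ± 3.43 in ESC-PGCLCs (SD, n = 2). From ESCs to ESC-PGCLCs it rose by 25.5 points (limma adjusted p = 0.00137), the only one of the 9 introns called where 19.4% of all introns were. The other imprinted neighbours, the transporter genes Slc22a2 and Slc22a3, differed by -3.61 and -4.37 points between pESCs and ESCs, with limma adjusted p-values of 1. From E9.5 to E12.5, 6 of the 9 introns were called lower where 64.01% of all introns were called, with a median of -26.2 points against -16.6 over all introns.

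The IGF2 and mannose 6-phosphate pathway was described from 20 genes. In pESCs against ESCs none of 16 testable introns was called by limma (0 with an unadjusted p under 0.05), and their median of 0.359 points lay near the 0.234 of all introns. The introns of Igf2 itself, the ligand that the receptor clears, were at 6.48% ± 0.122 in pESCs against 6.50% ± 0.610 in ESCs (SD, n = 2). From ESCs to ESC-PGCLCs 4 of 16 introns were called higher where 19.4% of all introns were called, namely those of the growth factor Igf1, the IGF-binding proteins Igfbp2 and Igfbp7, and the RNA-binding protein Igf2bp1. From E9.5 to E12.5, 12 of 17 were called lower where 64.01% of all introns were called. No promoter of the pathway was called between pESCs and ESCs.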

How the data were processed

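RRBS was performed on 12 mouse libraries. Per the deposited files and the study's methods, the authors aligned reads with Bismark 0.16.3 and bowtie2, treated identical reads at 1 place as duplicates, corrected for non-conversion, and deposited methylation levels per annotated feature as a fraction of methylated over all CG calls. The submitters' processing notes name mm10. The coverage minimum and promoter definition are not given in the sources used here. The level files give no counts, so depth is unknown and no interval was computed. Levels are printed as percentages.

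The fit used limma 3.58.1 (R 4.3.3), and each level entered as its log2 odds after 0.01 was added to both the methylated and the unmethylated fraction. P-values were adjusted by Benjamini-Hochberg across every feature with a level in each library of the fit. A feature was called at an adjusted p under 0.05 and a difference of at least 10 points. The fits held ESCs and pESCs (4 libraries), PGCs and PGCLCs (8), or stem cells and PGCLCs (8). The limma step was tested on simulated data. Gaps within libraries were compared by exact permutation. Islands and gene spans were taken from the files, GENCODE M21 and GRCm38, where all 14559 islands began with CG once starts were counted from 0. The rows named were all those of Igf2r and the islands in its span, plus 3 gene lists (called genes, or the largest differences) and the 5 most similar introns. The members and lists were chosen with earlier results of these data known. Alternatives were another offset, untransformed or centred levels, a replicate block, other sets of features or libraries, and leaving out each library.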

Additional observations from a re-analysis of the deposited data

Results flagged for a closer look

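The change on induction had opposite signs in the 2 origins at the imprint island and in the introns of Igf2r. Only at the imprint island was the difference between the 2 changes called. At the imprint island the change in pESC origin minus that in ESC origin was -47.6 points, with a limma adjusted p of 0.00721. The island rose in ESC origin (43.1 points), and the -4.42 points in pESC origin were not called (limma adjusted p = 0.528). In the introns it was -27.9 points, and the limma adjusted p of 0.548 did not pass the threshold. The introns rose in ESC origin (21.4 points), and the -6.44 points in pESC origin were not called (limma adjusted p = 0.414). What singled both rows out was that the libraries of the 2 origins differed in sign. The intron row contains the calls of the imprint island, so these are not separate observations. Groups of 2 libraries were too small to look for single outlying libraries.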

How the results depend on the processing

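The files gave no counts, so a coverage minimum could not be tried, and the depth behind each level is unknown. Each group has 2 libraries, and a row with few CG calls cannot be told from a well-covered one. Values below are limma adjusted p.

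The introns from E9.5 PGCs to pESC-PGCLCs, at 0.0499, lost their call under several settings: 0.0573 on untransformed levels, 0.0568 with a level in at least 1 library of each group, 0.0520 with all 12 libraries, 0.0615 with the replicate block, 0.589 and the other side of 0 with centred libraries, and 0.0153 to 0.20 leaving out 1 library. Centring also ended the calls of the introns for E12.5 against E9.5 PGCs (0.794), ESC-PGCLCs against E9.5 PGCs (0.567, and 0.0133 to 0.0944 leaving out 1 library) and ESC-PGCLCs against ESCs (0.464, and 0.00822 to 0.0518). For the introns in pESCs against ESCs all 12 libraries gave 0.0220. Centring put these on the other side of 0: the introns (0.770), exons (0.950) and imprint island (0.281) in ESC-PGCLCs against E12.5 PGCs; the promoter (0.141), 5' UTR (0.646) and promoter island (0.245) in E12.5 against E9.5 PGCs; the imprint island in pESC-PGCLCs against E9.5 PGCs (0.0451); the 5' UTR in pESCs against ESCs (1.00); and the exons (0.295) and promoter (0.0371) in ESC-PGCLCs against ESCs. The cause was not tested.

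Leaving out 1 library turned small differences around in pESCs against ESCs for the exons (0.892 to 1), promoter (0.945 to 1), 5' UTR (0.945 to 1) and promoter island (0.928 to 1). It did so for the promoter (0.353 to 0.941) and 5' UTR (0.232 to 1) in ESC-PGCLCs against E12.5 PGCs and the exons (0.577 to 0.686) in pESC-PGCLCs against E12.5 PGCs. The rest were the exons (0.391 to 0.968) and promoter (0.635 to 0.988) in pESC-PGCLCs against pESCs and the promoter island in the interaction (0.809 to 1). A lone library is assumed to vary like the others. Same-numbered deviations correlated at 0.358 to 0.42 for ESCs and pESCs and at -0.0496 to 0.109 in the other pairs of groups. The labels name no shared batch and each group has only 2 numbers, so the numbers were not taken to pair libraries. Most pairs of groups were under 0.1, but that does not bear on ESCs and pESCs. Whether same-numbered libraries of ESCs and pESCs shared a batch was not tested. With the replicate block pESCs against ESCs gave 0.411 for the introns and 0.0529 for the imprint island, and 2 calls were lost, the introns above and the exons in ESC-PGCLCs against E9.5 PGCs (0.0616).

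Counts of calls moved by over 1.5 times as follows. Centring lowered them from 68050 to 24392 (E12.5 against E9.5 PGCs), 40911 to 12535 and 55337 to 18934 (ESC-PGCLCs and pESC-PGCLCs against E9.5 PGCs), 31238 to 8086 and 9740 to 1091 (the same against E12.5 PGCs), and 19923 to 12916 (ESC-PGCLCs against ESCs, where the share called higher went from 93.8% to 72.6%). That share went from 92.3% to 71.1% in pESC-PGCLCs against pESCs and from 96.0% to 76.1% against E12.5 PGCs. With all 12 libraries there were 70 calls in pESCs against ESCs (0 as reported), 13297 and 619 in ESC-PGCLCs and pESC-PGCLCs against E12.5 PGCs, 85 in pESC-PGCLCs against ESC-PGCLCs and 82 in the interaction. The 130 calls between the PGCLCs became 1337 with an offset of 0.1, 1771 untransformed, 259 with a level in at least 1 library of each group and 38 with the block, and the 50 of the interaction became 10, 15 and 87 under the first 3 of these. Intron rows alone, fewer by construction, gave 3 calls in pESCs against ESCs, without Igf2r (0.501), and fewer calls elsewhere. Leaving out 1 library gave 0 to 721 calls in pESCs against ESCs, 150 to 1760 in pESC-PGCLCs against E12.5 PGCs, 29 to 359 between the PGCLCs, 12271 to 35512 in ESC-PGCLCs against ESCs, 7482 to 9887 in pESC-PGCLCs against pESCs, and 0 to 161 in the interaction.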

Other observations

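Among the islands of other genes with an egg-derived imprint region, 2 were low in both kinds of stem cell and high in germ cells. The island in H13, a signal peptide peptidase gene, averaged 2.26% in ESCs and 5.37% in pESCs, against 58.4% in PGCs at E9.5. PGCLCs had 38.7% from ESCs and 31.9% from pESCs. A Gnas island at chr2:174284648-174285390 averaged 2.06% in ESCs and 3.32% in pESCs, against 63.4% in PGCs at E9.5. PGCLCs had 50.2% from ESCs and 37.0% from pESCs. The Gnas islands at chr2:174297263-174297532 and chr2:174298464-174300644 averaged 61.2% and 58.0% in pESCs. Islands were chosen by position within the gene and by that E9.5 level, so an island named here need not be its egg-derived imprint region. In contrast with the Igf2r imprint island, the H13 island and the first Gnas island named were lower in pESC-PGCLCs than in ESC-PGCLCs. Igf2r was not alone in its direction. The islands of Peg10, Kcnq1, Impact, Inpp5f, Herc3 and Plagl1 and the other Gnas islands were also higher in pESC-PGCLCs. Those of Grb10 and Blcap were lower, and Commd1 and Trappc9 each had an island in either direction. These islands were named after their values were seen.

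In the Igf2r neighbourhood the promoter of Pnldc1, a gene for an exonuclease that trims piRNAs in germ cells, rose from 14.7% ± 9.17 in ESCs to 62.0% ± 4.16 in ESC-PGCLCs (SD, n = 2, 47.3 points, limma adjusted p = 0.00268). It rose from 11.1% ± 2.76 in pESCs to 50.2% ± 1.80 in pESC-PGCLCs (39.1 points, limma adjusted p = 0.00611), and was the only one of 6 neighbouring promoters called in either origin, where 12.9% and 9.23% of all promoters were called.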
